A study of Neurospora crassa OR74A with 15 samples.

Results

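Mycelia of Neurospora crassa fed a whole plant material, orange peel powder, were compared with mycelia fed nearly pure cellulose, Avicel (microcrystalline cellulose). The comparison takes 5 of the 15 RNA-seq libraries of the series: 2 libraries after 4 h on 1% orange peel powder and 3 after 4 h on 2% Avicel. All came from the wild-type strain FGSC 2489, no allele having been introduced, and all cultures had first grown for 16 h in Vogel's salts with 2% sucrose and been washed without carbon. The labels assign the orange peel powder libraries to the present study and the Avicel libraries to an earlier one, so in any difference between them the carbon source, its concentration and the study cannot be told apart. Within each study 1 further group served as a reference: 3 libraries on 1% pectin beside orange peel powder, and 3 without carbon beside Avicel. The fit also included 3 libraries on 2% sucrose from the earlier study. A single library on 2% xylan from the present study stayed outside the fit and is cited for a few genes. Values are FPKM, fragment counts scaled by transcript length and by the mapped fragments of the library, which allow levels of different genes to be compared.

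The plant cell wall holds cellulose fibres in a matrix of hemicelluloses (xylan, mannan, xyloglucan) and pectin, and citrus peel is a pectin-rich tissue. Fungi such as N. crassa secrete a different enzyme set for each polymer. Cellulose is cut by cellobiohydrolases, endoglucanases and oxidative monooxygenases into cellodextrins, short glucose chains that specific transporters carry into the cell. The pectin backbone is cut by polygalacturonases and lyases, and its main sugar acid, galacturonic acid, is taken up and broken down by a dedicated short pathway. In N. crassa the transcription factors CLR-1 and CLR-2 drive cellulase genes and XLR-1 drives xylanase genes.

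The libraries of a group resembled each other more than those of the other group. Across the 8700 tested genes, which are not independent replicates, Pearson's r was 0.992 between the orange peel powder libraries, 0.904 to 0.990 between Avicel libraries and 0.849 to 0.897 across the groups. Avicel replicate 1 stood apart from replicates 2 and 3. The deposited values imply 60.4 megabases of mapped sequence for it, against 386 and 355 for the others, and it listed 1684 of 9733 loci at 0, against 1036 and 1048. The depth of the orange peel powder libraries is unknown, and they listed 948 and 936 loci at 0.

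Of 8700 genes tested, 1249 (14.4%) were called, that is, reached an adjusted p below 0.05 (limma, Benjamini-Hochberg) with at least a 2-fold difference on the log2(FPKM + 1) scale. Of these, 698 (8.02%) were higher and 551 (6.33%) lower on orange peel powder. The median log2 fold change over all tested genes was 0.01. The differences were wide: 112 of the higher and 95 of the lower genes differed by 3 or more on the log2 scale. The within-study comparisons gave fewer calls, 27 (0.310%) for orange peel powder against pectin and 554 (6.37%) for Avicel against no carbon, where 351 (4.03%) were higher and 203 (2.33%) lower on Avicel. The libraries of the groups did not overlap for any called gene, as also for 53.8% of all tested genes. A comparison without Avicel replicate 1 called 1778 genes, and one without orange peel powder replicate 1 or 2 called 493 or 735, the lone library being assumed to vary like the other groups. Avicel replicate 1 was the highest Avicel library for 467 of the 698 higher genes (66.9%), against 34.6% of all tested genes. Without it, 1178 of the 1249 calls were kept and 934 genes were called higher. Why it was high for these genes was not tested.

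**Figure D1:**
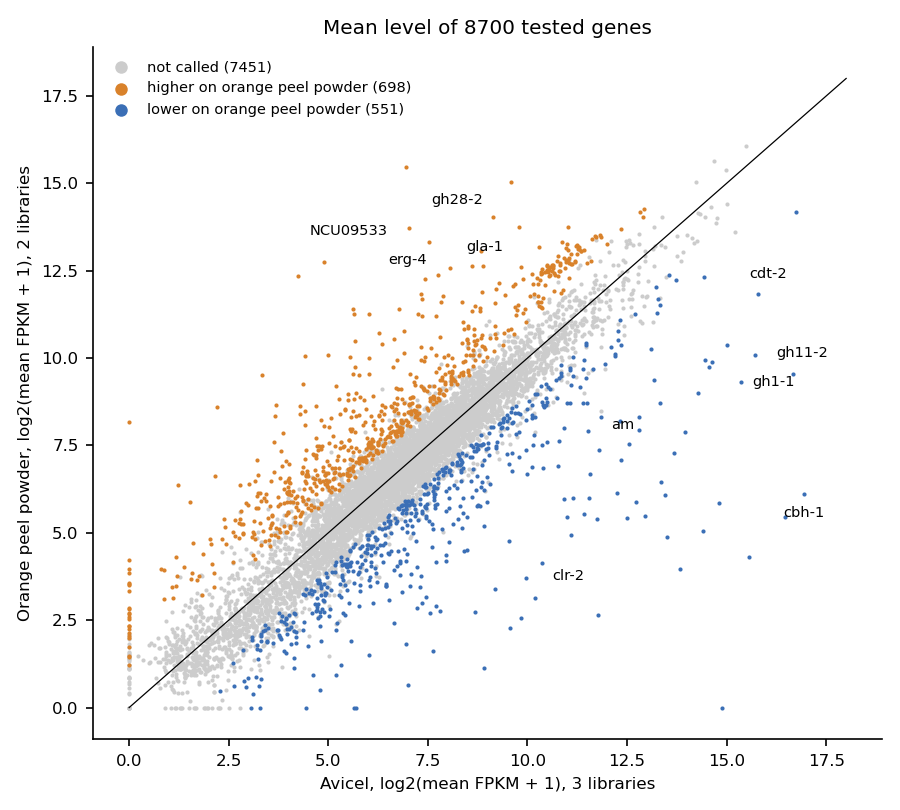
Mean levels of the 8700 tested genes on Avicel (horizontal axis, 3 libraries) and orange peel powder (vertical axis, 2 libraries), both as log2(mean FPKM + 1), with 1 point per gene and the line of equal levels. The 698 higher genes (orange) include gh28-2 and NCU09533, and the 551 lower genes (blue) include cbh-1, gh11-2 and clr-2, far from the line.

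**Figure D2:**
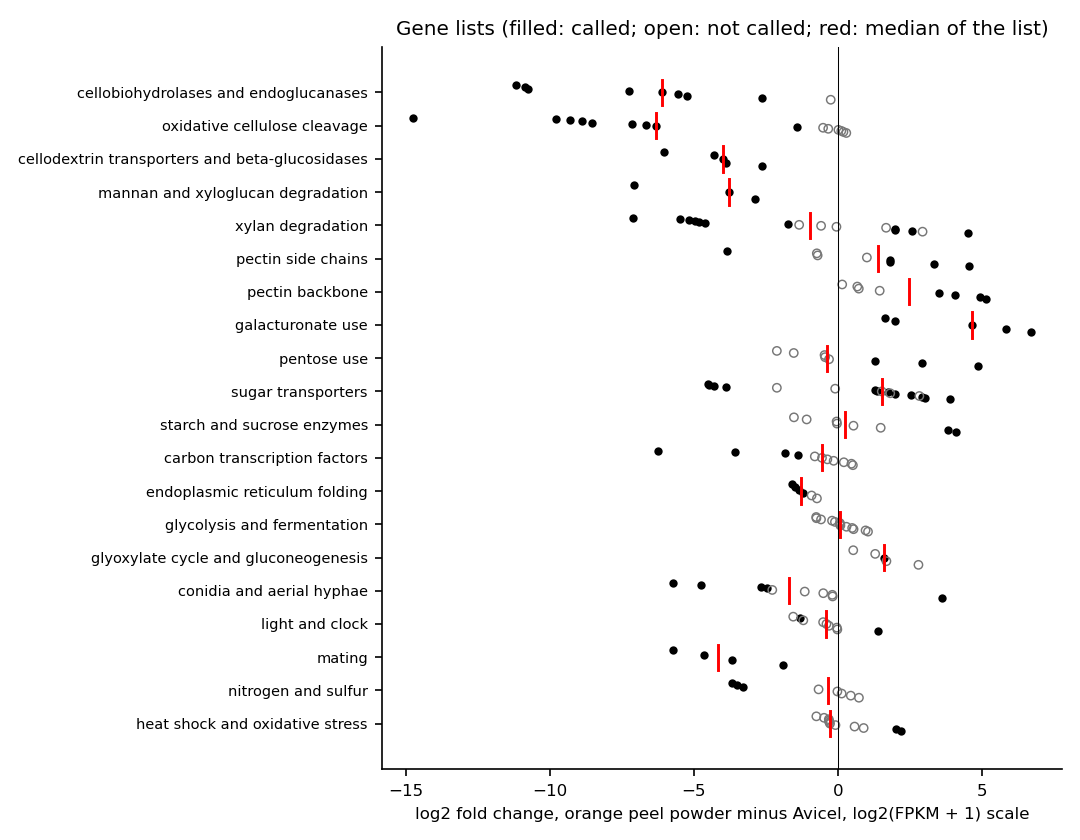
Log2 fold change (orange peel powder minus Avicel) of each tested member of 20 gene lists, with called members filled and the median of the list in red. The cellulase, cellodextrin, mannan, mating and folding lists lie wholly below 0. The galacturonate, pectin backbone and glyoxylate lists lie wholly above it. The oxidative list has its called members below 0, and the xylan and sugar transporter lists have theirs on both sides.

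The cellobiohydrolase genes cbh-1 and gh6-2 and the endoglucanase gene gh5-1 were below 100 FPKM on orange peel powder and at 32852 FPKM or more in every Avicel library. Of 9 cellobiohydrolase and endoglucanase genes, 8 were lower and none higher, with a median log2 fold change of -6.12. The gene cbh-1 (NCU07340 on contig 10.4, positions 4311049 to 4313881), whose product, a cellobiohydrolase, releases cellobiose from chain ends, was at 61.7 and 73.6 FPKM on orange peel powder and 186620.0, 86756 and 104215 on Avicel. Each orange peel powder library was thus far below each Avicel library, with a log2 fold change of -10.77 ± 0.59 (SE; limma adjusted p = 1.6e-07). The second cellobiohydrolase gene gh6-2 (NCU09680) was at 39.5 and 45.5 against 148857, 51927 and 69064 FPKM (log2 -10.87 ± 0.36, adjusted p = 3.62e-09). The endoglucanase gene gh5-1 (NCU00762), whose product cuts within the chain, was at 18.2 and 19.9 against 68101, 32852 and 43671 (log2 -11.17 ± 0.97, adjusted p = 1.05e-05). The mean FPKM of cbh-1, gh6-2 and gh5-1 was 1860.2-, 2118- and 2535-fold higher on Avicel. Among the other members, gh7-1, gh7-2, gh45-1 and gh7-4 were lower by log2 -7.26, -6.12, -5.23 and -2.64. The call of gh7-4 was lost with values under 10 FPKM set to 10 (adjusted p = 0.363). gh6-3 kept the highest level of the list on orange peel powder, 1316 and 840.0 FPKM against 81467, 33297 and 45431 (log2 -5.56 ± 0.47). gh6-1 was not called, at 5.36 and 5.74 against 0, 19.7 and 22.2 FPKM (adjusted p = 0.895).

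Genes for oxidative cleavage of cellulose were also lower on orange peel powder or not called. Lytic polysaccharide monooxygenases cut crystalline cellulose oxidatively, and cellobiose dehydrogenase can supply them with electrons. Of 15 such genes, 9 were lower on orange peel powder and none higher (median log2 -6.30). The monooxygenase gene gh61-4 (NCU01050) was listed at 0 in both orange peel powder libraries and at 49138, 17896 and 22868 FPKM on Avicel, so no fold is given (adjusted p = 1.63e-06). The cellobiose dehydrogenase gene cdh-1 (NCU00206) was at 14.7 and 14.6 against 21319.9, 9524 and 12497 FPKM, a log2 fold change of -9.77 ± 0.32 (adjusted p = 3.62e-09). The monooxygenase genes gh61-1, gh61-5, gh61-7, NCU07898, gh61-6 and gh61-3 were lower by log2 -9.31, -8.90, -8.55, -7.16, -6.65 and -6.30. gh61-8 was low in both groups, at 3.12 and 1.75 against 11.9, 5.98 and 7.01 FPKM (log2 -1.41 ± 0.37), and its call was lost without orange peel powder replicate 1 or 2 (adjusted p = 0.0632 and 0.17, in that order), with a pseudocount of 5 (log2 -0.82), after quantile normalization (adjusted p = 0.0821), with only the groups compared in the fit (adjusted p = 0.0865) and with values under 10 FPKM set to 10 (adjusted p = 0.364). gh61-2 was at 219 and 237 against 307, 189 and 199.8 FPKM (log2 0.01 ± 0.33), gh61-9 at 271 and 258 against 442, 156 and 148 (log2 0.28 ± 0.47), and neither was called.

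Genes for uptake and cleavage of cellodextrins were lower too, all 5 of them, with a median log2 fold change of -4.0, and the transporter genes were still well expressed on orange peel powder. The transporter gene cdt-1 (NCU00801) was at 841 and 1118 FPKM against 41156, 12847 and 13786 (log2 -4.32 ± 0.56, adjusted p = 0.000283). The second transporter gene cdt-2 (NCU08114, contig 10.1, positions 318873 to 321079) was at 3544 and 3685 against 34039.6, 64599 and 70796 (log2 -3.90 ± 0.65, adjusted p = 0.00156). The orange peel powder libraries lay closely together for cdt-2, while Avicel replicate 1 was the lowest of its group. On pectin, in the same study as orange peel powder, cdt-2 was at 508 ± 212 FPKM (SD, n = 3), a log2 difference of 2.91 that was not called (adjusted p = 0.107). The intracellular beta-glucosidase gene gh1-1 was at 611 and 655 against 33410.4, 43047 and 50743 FPKM (log2 -6.04 ± 0.43). The beta-glucosidase gene gh3-4 was lower by log2 -4.0, a call lost, that is, no longer past both thresholds, with only the groups compared in the fit (adjusted p = 0.0684). gh3-3 was lower by -2.63, a call lost without orange peel powder replicate 1 (adjusted p = 0.0708). Together the 29 genes of the cellulose lists took 0.234 and 0.229% of the summed FPKM of the orange peel powder libraries and 15.9, 11.0 and 13.0% on Avicel. The share was 0.13, 0.167 and 0.195% on pectin and 0.0697, 0.0725 and 0.0735% without carbon.

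Xylan genes split between the carbon sources, and gh10 xylanases were called in opposite directions. Of 16 genes, 7 were lower and 4 higher on orange peel powder (median log2 -0.97). The 4 higher calls became 1 without orange peel powder replicate 1 and 2 without replicate 2. The xylanase gene gh11-2 (NCU07225) was at 772 and 723 FPKM against 126366, 84185 and 103438 (log2 -7.11 ± 1.18, adjusted p = 0.00144), whereas its family member gh11-1 was at 5298 and 3932 against 9171, 3086 and 3815 (log2 -0.06 ± 0.80, not called). Avicel replicates 2 and 3 were below the orange peel powder values for gh11-1 and replicate 1 was above them. Of the gh10 genes, gh10-1 (NCU05924) was lower, at 525 and 495 against 30744, 12382 and 16236 (log2 -5.17 ± 0.79, adjusted p = 0.000847), and gh10-3 (NCU04997) was higher, at 781 and 708 against 184, 101 and 107 (log2 2.55 ± 0.49, adjusted p = 0.0037). gh10-2, the most abundant xylanase gene on orange peel powder, was at 12401 and 12428 against 12303, 48359 and 53692 FPKM and not called (adjusted p = 0.459). Both orange peel powder values lay next to Avicel replicate 1 and far below the others.

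Debranching genes of xylan divided in the same way. The acetylxylan esterase genes NCU05159, NCU04870 and NCU09664 were lower, the first at 1306 and 1350.1 against 34712, 27982 and 35960.4 FPKM (log2 -4.62 ± 0.36), the others by -4.81 and -5.49. The feruloyl esterase genes parted, with NCU08785 lower (log2 -4.97) and NCU09491 higher, at 1374 and 1197 against 1071, 146 and 221 FPKM (log2 1.97 ± 0.60, adjusted p = 0.0362). Avicel replicate 1 lay near the orange peel powder values for NCU09491, and the call was lost without orange peel powder replicate 1 or 2 or Avicel replicate 2 or 3 (adjusted p = 0.209, 0.132, 0.114 and 0.115, in that order), without the filter (adjusted p = 0.0617), with only the groups compared in the fit (adjusted p = 0.195) and with values under 10 FPKM set to 10 (adjusted p = 0.0532). The arabinofuranosidase gene NCU09775, whose enzyme class removes arabinose, was higher, at 812 and 899 against 266, 13.5 and 12.7 (log2 4.51 ± 0.94, adjusted p = 0.00594). Its call was lost without orange peel powder replicate 1 (adjusted p = 0.0562) and with only the groups compared in the fit (adjusted p = 0.1). The beta-xylosidase genes moved both ways. gh3-7 was higher, at 821 and 850.1 against 163, 214 and 280.3 (log2 1.96 ± 0.47), a call lost without orange peel powder replicate 1 or 2 (adjusted p = 0.1 and 0.0833, in that order) and with a pseudocount of 0.1 (adjusted p = 0.19). NCU01900 was lower, at 2445 and 2573 against 3574, 12226 and 13407 (log2 -1.74 ± 0.49, adjusted p = 0.0268), a call lost without orange peel powder replicate 1 or 2 or Avicel replicate 2 or 3 (adjusted p = 0.163, 0.116, 0.0914 and 0.0937, in that order), with only the groups compared in the fit (adjusted p = 0.137) and with the replicate number as a block (adjusted p = 0.0561). Against pectin NCU01900 was higher, with 349.9 ± 22.9 FPKM there (log2 2.84, adjusted p = 0.031), so its level on orange peel powder was between those on pectin and Avicel. The xylan list took 0.767 and 0.717% of summed FPKM on orange peel powder, 4.68, 5.10 and 5.88% on Avicel and 0.316, 0.267 and 0.262% on pectin.

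The 3 genes for mannan and xyloglucan, hemicelluloses built on mannose and glucose chains, were all lower on orange peel powder. The xyloglucanase gene NCU05955 was at 35.5 and 49.0 FPKM against 6453, 5019.5 and 5885 (log2 -7.07 ± 0.28, adjusted p = 1.35e-08). The endo-mannanase gene NCU08412 was at 488 and 826 against 13229, 6819 and 7659 (log2 -3.80 ± 0.55), and the beta-mannosidase gene gh2-1 at 177 and 212 against 1271, 1450.3 and 1594 (log2 -2.88 ± 0.25). On pectin these genes were at 38.7 ± 2.84, 1695 ± 751 and 399 ± 134 FPKM (SD, n = 3), and none was called between orange peel powder and pectin.

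**Figure D3:**
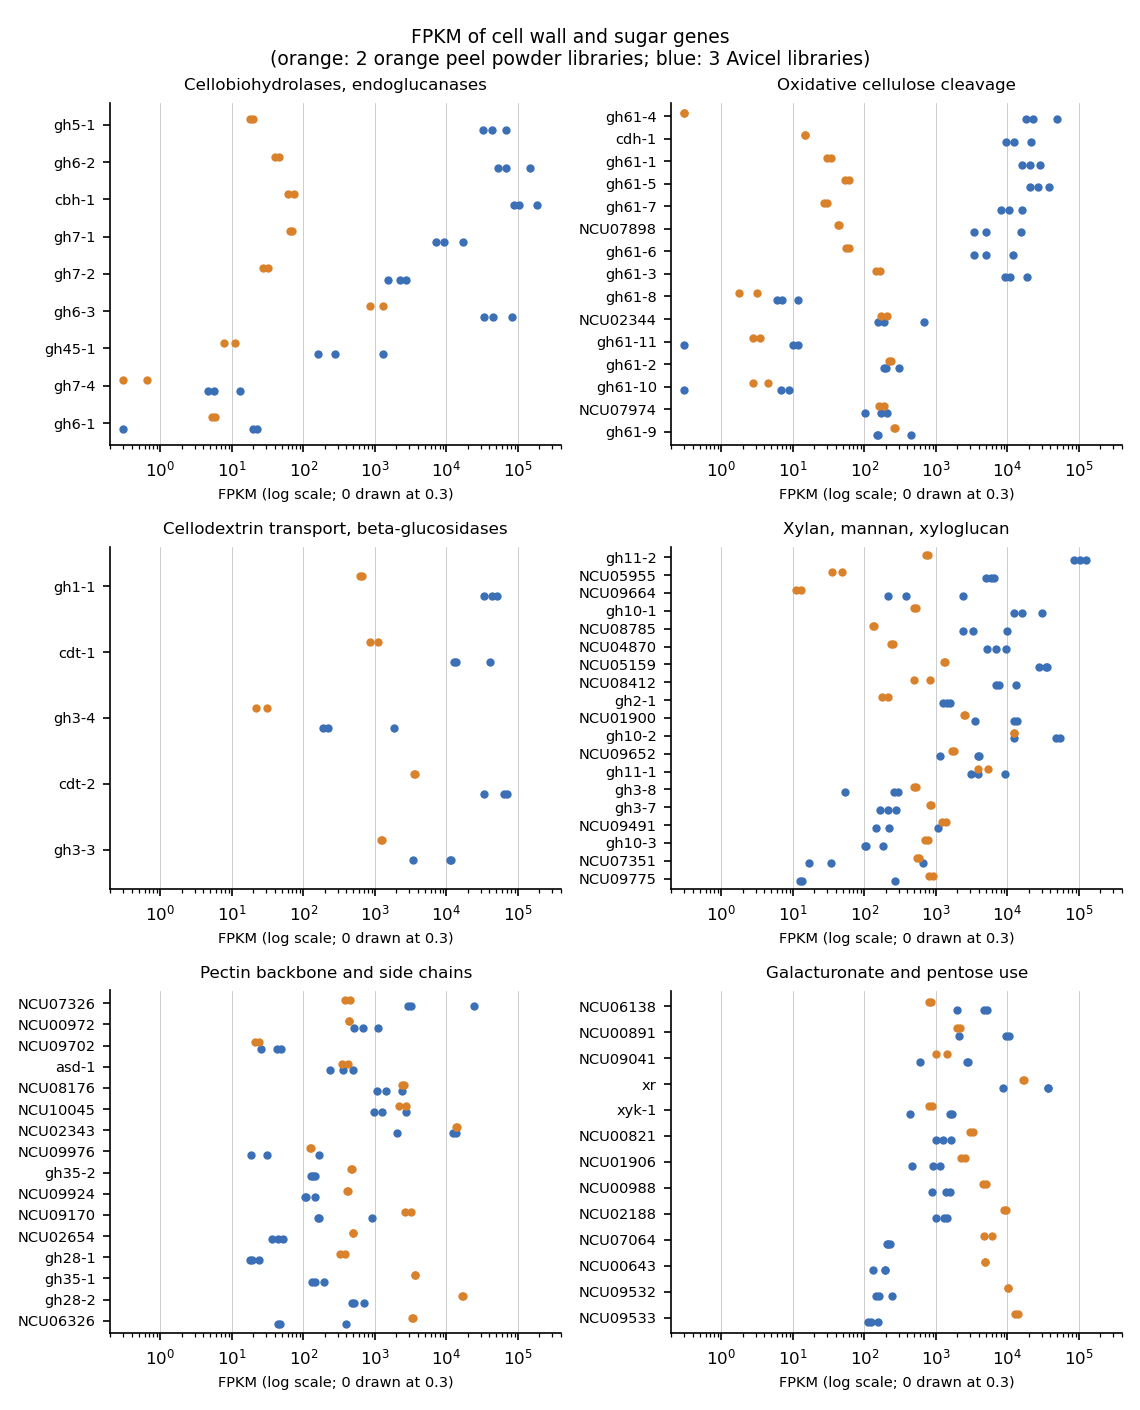
FPKM per library on a log axis for tested genes of cellulose, hemicellulose, pectin, galacturonate and pentose use, with orange peel powder libraries in orange and Avicel libraries in blue and values listed at 0 drawn at 0.3. The groups are orders of magnitude apart for cbh-1 and gh5-1 in one direction and for NCU09533 in the other, and they interleave for gh61-2, gh11-1 and xr.

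Genes against the pectin backbone were higher on orange peel powder or not called, and none was lower. Of 8 genes, 4 were higher, with a median log2 fold change of 2.47. The polygalacturonase-family gene gh28-2 (NCU06961, contig 10.4, positions 4670149 to 4671713) was at 16724 and 17096 FPKM on orange peel powder and 699.6, 478 and 516 on Avicel. The groups were well separated, with a log2 fold change of 4.92 ± 0.27 (adjusted p = 1.76e-07). The second gene of that family, gh28-1 (NCU02369), was at 383 and 327 against 24.2, 19.2 and 17.9 FPKM (log2 4.06 ± 0.21, adjusted p = 1.4e-07). The lyase gene NCU06326 was at 3391 and 3256 against 395, 47.3 and 43.7 (log2 5.13 ± 0.69, adjusted p = 0.000353), with Avicel replicate 1 well above the other Avicel libraries. NCU02654, also listed here, was at 501 and 499 against 36.2, 44.1 and 51.6 (log2 3.49 ± 0.28). The other members were already substantial on Avicel. The lyase gene NCU08176 was at 2540.1 and 2355 against 2411, 1067 and 1434 FPKM (log2 0.66 ± 0.30, adjusted p = 0.143), and asd-1 at 418 and 348 against 496, 236 and 355 (log2 0.14 ± 0.47). NCU10045 and NCU09976 had log2 fold changes of 0.71 and 1.44. In the earlier study NCU08176, asd-1, NCU10045 and NCU09976 were each higher on Avicel than without carbon, where NCU08176 was at 18.3 ± 2.76 FPKM (SD, n = 3).

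Pectin side chains of arabinan and galactan gave a mixed picture. Of 8 tested genes, 4 were higher and 1 lower, and NCU00852 was listed at 0 in both groups. The beta-galactosidase gene gh35-1 (NCU00642) was at 3693 and 3607 FPKM against 196, 133 and 147 (log2 4.54 ± 0.34, adjusted p = 2.85e-06). Its paralog gh35-2 was at 483 and 466 against 129.7, 137 and 144 (log2 1.79 ± 0.26, adjusted p = 0.000626). Both groups were tight for these genes and, as for every called gene, did not overlap. NCU09170 was higher by log2 3.31, a call lost with only the groups compared in the fit (adjusted p = 0.0602). The exo-arabinanase gene NCU09924 was higher by log2 1.81, a call lost without orange peel powder replicate 1 or 2 or Avicel replicate 1, 2 or 3 (adjusted p = 0.173, 0.144, 0.0528, 0.0854 and 0.057, in that order), with a pseudocount of 0.1 (adjusted p = 0.307), without the filter (adjusted p = 0.0544) and with the replicate number as a block (adjusted p = 0.0554). In the opposite direction, the arabinanase-family gene NCU07326 was at 384 and 447 FPKM against 24582, 2864 and 3146 (log2 -3.86 ± 0.68), a call lost with only the groups compared in the fit (adjusted p = 0.0674). The arabinofuranosidase gene NCU02343 was abundant in both groups, at 13674 and 14094 against 2018, 13543 and 12376 FPKM, and was not called. The endo-galactanase gene NCU00972 was at 432 and 438 against 1106, 516 and 676 (log2 -0.74 ± 0.35, not called). Against pectin both NCU00972 and NCU08176 were lower on orange peel powder, by log2 -2.32 (adjusted p = 0.0146) and -1.84 (adjusted p = 0.0214). The 17 pectin genes took 1.24 and 1.25% of summed FPKM on orange peel powder, 0.696, 0.519 and 0.499% on Avicel, 2.38, 2.12 and 2.10% on pectin and 0.0522, 0.0559 and 0.0811% without carbon.

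The pathway that breaks down galacturonic acid was higher on orange peel powder at every listed step. All 5 genes were called (median log2 4.63). The reductase gene NCU09533 (contig 10.5, positions 4497262 to 4498786), which serves the first step, was at 12934 and 13945 FPKM against 157, 123 and 112 on Avicel. The mean FPKM was 103-fold higher on orange peel powder, with a log2 fold change of 6.69 ± 0.39 (adjusted p = 2.6e-07). Genes of the following steps were NCU07064, at 4661 and 6063 against 211, 205 and 227 (log2 4.63 ± 0.27), and NCU09532, at 10190.5 and 10169.9 against 242, 159.6 and 147 (log2 5.82 ± 0.39). These 3 genes were near or below their level without carbon in the Avicel libraries, 275 ± 146, 197 ± 53.0 and 339.9 ± 161 FPKM (SD, n = 3). The ends of the pathway differed less. The transporter gene NCU00988 was at 4613 and 5071 against 871, 1365 and 1552 (log2 1.98 ± 0.44, adjusted p = 0.00897), a call lost without orange peel powder replicate 1 or 2 (adjusted p = 0.0698 and 0.0685, in that order) and with a pseudocount of 0.1 (adjusted p = 0.22). NCU01906, listed for the reduction of glyceraldehyde, was at 2247 and 2525 against 456, 916 and 1138 (log2 1.61 ± 0.35, adjusted p = 0.00741), a call lost without orange peel powder replicate 1 or 2 (adjusted p = 0.0573 and 0.0644, in that order) and with only the groups compared in the fit (adjusted p = 0.0649). Against pectin the 5 genes had log2 fold changes (orange peel powder minus pectin) from -0.97 to -0.45, none of them called. The list took 0.898 and 0.952% of summed FPKM on orange peel powder, 1.47, 1.46 and 1.47% on pectin and 0.0374, 0.0704 and 0.0771% on Avicel.

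**Figure D4:**
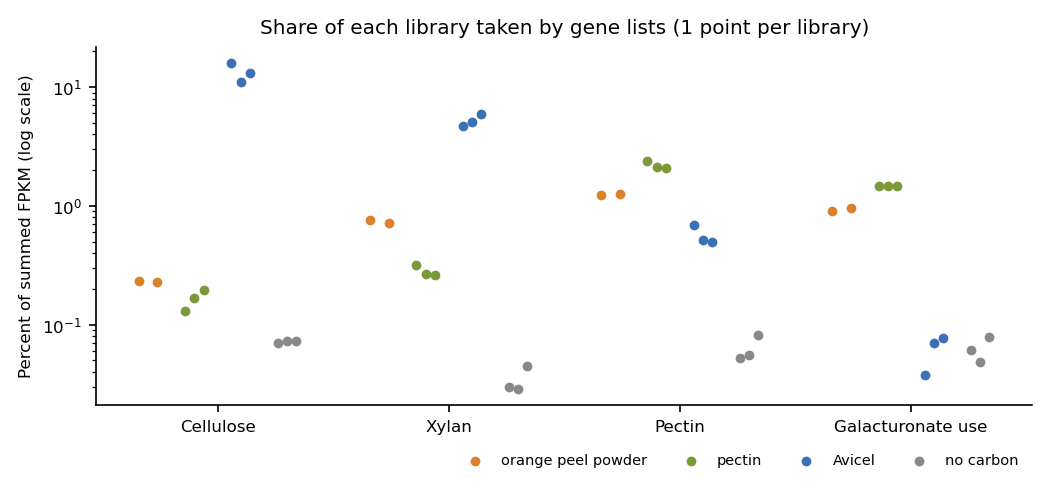
Percent of the summed FPKM of each library taken by the cellulose, xylan, pectin and galacturonate lists, on a log axis with 1 point per library of 4 carbon conditions. Cellulose genes take 11.0 to 15.9% of Avicel libraries and 0.229 to 0.234% of orange peel powder libraries, and galacturonate genes take 0.0374 to 0.0771% and 0.898 to 0.952%.

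Pentose genes had log2 fold changes on both sides of 0, from -2.13 to 4.84 with a median of -0.39. Xylose and arabinose, the main pentoses of hemicellulose and pectin side chains, enter through reductase and dehydrogenase steps. Of 8 genes, 3 (37.5%) were called higher and none lower, against 14.4% of all tested genes called in either direction. Without Avicel replicate 1, 2 were called lower, and without the first Avicel and sucrose libraries, 3 were. After quantile normalization or with only the groups compared in the fit, 1 was called lower. The arabinitol dehydrogenase gene NCU00643 was at 4924 and 4885 FPKM against 131, 191 and 195 (log2 4.84 ± 0.29, adjusted p = 4.36e-07), with little spread and, as for every called gene, no overlap. The xylose reductase gene xr (NCU08384) was abundant in both, at 16344 and 16809 against 8539.9, 36991 and 37166 (log2 -0.46 ± 0.50, not called). Avicel replicate 1 was below the orange peel powder values of xr and replicates 2 and 3 were above them. The same order held for the xylulose kinase gene xyk-1, at 801 and 875 against 428, 1668 and 1594 (log2 -0.32 ± 0.52). The listed arabinose transporter gene NCU02188 was at 9028 and 9512 against 1018, 1291 and 1419 (log2 2.91 ± 0.41), a call lost with a pseudocount of 0.1 (adjusted p = 0.0583). NCU00821, a listed xylose transporter gene, was higher by log2 1.29, a call lost without orange peel powder replicate 1 or 2 or Avicel replicate 3 (adjusted p = 0.113, 0.116 and 0.0551, in that order).

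Sugar transporter genes went both ways. Of 17 genes, 8 were higher and 4 lower, including cdt-1, cdt-2, NCU00988, NCU02188 and NCU00821 above. In all 70.6% of the list was called, against 14.4% of all tested genes. The 8 higher calls became 5 without either orange peel powder library. NCU04537 was at 996 and 499 FPKM against 36.1, 59.7 and 48.6 (log2 3.87 ± 0.51), and NCU05585 at 2349.8 and 2825 against 406, 471 and 461 (log2 2.53 ± 0.31). No source used here gives the substrates of these transporters. NCU01132 was higher by log2 3.0, a call lost with a pseudocount of 0.1 (adjusted p = 0.0629). NCU05853 went the other way, at 889 and 988 against 8415, 32427 and 34915 (log2 -4.50 ± 0.62, adjusted p = 0.00039). NCU06384 was lower from a low level, at 1.26 and 2.46 against 38.6, 78.9 and 73.2 FPKM (log2 -4.46 ± 0.46). The hexose transporter gene hgt-1 was at 14961 and 11704 against 4921, 5254 and 5466 (log2 1.34 ± 0.41, adjusted p = 0.0365), a call lost without orange peel powder replicate 1 or 2 or Avicel replicate 1, 2 or 3 (adjusted p = 0.246, 0.103, 0.0532, 0.083 and 0.0785, in that order) and without the filter (adjusted p = 0.0556).

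Of 8 starch and sucrose genes, 2 (25%) were called higher and none lower, against 14.4% of all tested genes called in either direction. These 8 genes had log2 fold changes from -1.53 to 4.08. Upper-quartile scaling, quantile normalization and the replicate number as a block called 1, 2 and 1 of them lower. The glucoamylase gene gla-1 (NCU01517), whose product frees glucose from starch, was at 7090.4 and 5748 FPKM against 886, 349 and 173 (log2 4.08 ± 0.60, adjusted p = 0.000626). The invertase gene inv (NCU04265), whose product splits sucrose, was at 14569 and 13169 against 5334, 653 and 273 (log2 3.81 ± 0.94, adjusted p = 0.0143). Avicel replicate 1 was many times above replicates 2 and 3 for inv, and the call was lost without orange peel powder replicate 1 or 2 (adjusted p = 0.113 and 0.0774, in that order) and with only the groups compared in the fit (adjusted p = 0.114). The alpha-amylase gene gh13-1 was abundant and alike in level, at 8297 and 9351 against 8617, 9556 and 9080.0 (log2 -0.04 ± 0.18, adjusted p = 0.904). gla-2 was at 598 and 648 against 390.2, 466 and 441 (log2 0.53 ± 0.15), below the 2-fold limit.

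Among transcription factor genes for carbon use, the cellulose and xylan regulators were lower on orange peel powder and the listed pectin regulators were not called. Of 11 genes, 4 (36.4%) were lower and none higher, against 14.4% of all tested genes called in either direction. The count of lower genes stayed at 4 with Avicel replicate 1, 2 or 3 left out in turn. clr-2 (NCU08042, contig 10.4, positions 4001190 to 4004631) was at 20.1 and 13.2 FPKM against 1521, 1122 and 1289.6 (log2 -6.23 ± 0.43, adjusted p = 1.44e-06), and without carbon, in the earlier study, at 11.8 ± 6.94 (SD, n = 3). NCU05846 was at 232 and 246 against 3354, 2543 and 2839.5 (log2 -3.59 ± 0.19, adjusted p = 1.16e-07). xlr-1 was at 340.4 and 293 against 984, 1183 and 1303 (log2 -1.86 ± 0.24, adjusted p = 0.000273), and clr-1 at 289.9 and 290.2 against 519, 936 and 950.3 (log2 -1.41 ± 0.26, adjusted p = 0.003). The groups did not overlap for any of the 4, as for every called gene. The pectin regulator genes of the list were NCU09033, at 121 and 159 against 88.4, 109 and 95.4 (log2 0.51 ± 0.25, adjusted p = 0.17), and NCU04295, at 364 and 405 against 238, 394 and 401 (log2 0.20 ± 0.26, adjusted p = 0.661). The carbon catabolite repressor gene cre-1 was at 309 and 305 against 699.5, 113 and 139.9, with the orange peel powder values inside the Avicel range (log2 0.46 ± 0.68). vib-1 was lower by less than 2-fold, at 748 and 773 against 1184, 1362 and 1476 (log2 -0.81 ± 0.26, adjusted p = 0.0437). The other members had log2 fold changes of -0.16 (col-26), -0.38 (NCU05414) and -0.56 (NCU01856).

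Genes for protein folding in the endoplasmic reticulum, where secreted enzymes are matured, were lower or not called on orange peel powder. Of 6 genes, 4 (66.7%) were called lower (median log2 -1.28), against 14.4% of all tested genes called in either direction. The chaperone gene grp78 (NCU03982) was at 4883 and 4804 FPKM against 15979, 11826 and 13257 (log2 -1.49 ± 0.28, adjusted p = 0.00302). The protein disulfide isomerase gene NCU09223 was at 3254 and 3337 against 9711, 9099 and 11192 (log2 -1.60 ± 0.27), and the calnexin-family gene NCU09265 at 2117 and 2226 against 5964, 4166 and 5183 (log2 -1.22 ± 0.22). NCU00813 was lower by log2 -1.34, a call lost without orange peel powder replicate 1 (adjusted p = 0.0754). In each of these genes both orange peel powder libraries were below all Avicel libraries, as for every gene called lower. On pectin grp78 was at 4716 ± 1113 FPKM (SD, n = 3), with both orange peel powder values within that SD, and without carbon at 1853 ± 278.

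**Figure D5:**
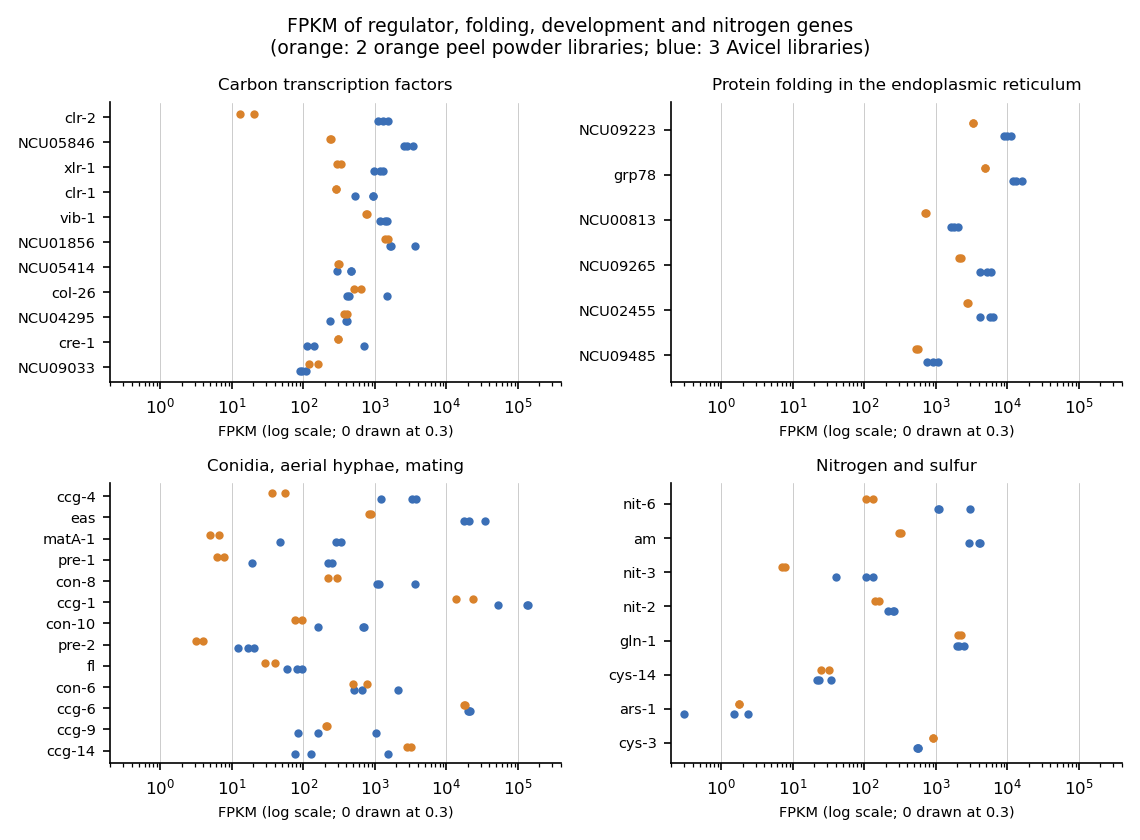
FPKM per library on a log axis for carbon regulators, folding genes, development genes and nitrogen and sulfur genes, with orange peel powder libraries in orange and Avicel libraries in blue and values listed at 0 drawn at 0.3. clr-2, eas and am lie well to the left on orange peel powder, while cre-1, con-6 and gln-1 interleave or nearly so.

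The largest increases on orange peel powder included several genes that the gene table used here does not name. NCU07159 was at 42811 and 48019 FPKM against 125, 126 and 114 (log2 8.53 ± 0.42, adjusted p = 7.56e-08), and it ranked 3rd in mean level on orange peel powder. NCU07200 was at 33416 and 34379 against 1459, 560.5 and 269 (log2 5.81 ± 0.82). NCU07088 was at 284 and 295 and was listed at 0 in all Avicel libraries, so no fold is given. On pectin these 3 genes reached 80238 ± 12215, 73996 ± 8525 and 307 ± 60.1 FPKM (SD, n = 3). NCU07536, NCU00265, NCU08739, NCU07923 and NCU05908 were higher by log2 8.13, 7.84, 6.82, 6.18 and 5.76. NCU05156, NCU08648, NCU07581 and NCU09497 were higher by 5.67, 5.64, 5.30 and 5.23. The 15 largest decreases were 11 members of the cellulose and xylan lists and 4 other genes. NCU04169 was at 3.60 and 6.94 against 1306, 4581 and 4560.5 (log2 -8.96 ± 1.38), NCU05863 at 0.627 and 1.74 against 212, 562 and 661 (log2 -7.67 ± 0.49), and NCU01076 at 2.98 and 4.63 against 1390.4, 364 and 528 (log2 -7.09 ± 0.49). The last was gh3-6, a glycoside hydrolase gene, lower by -7.29.

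Named genes outside wall degradation were also among the largest increases. The sterol synthesis gene erg-4 (NCU03006) was at 6371 and 5906 FPKM against 349, 235 and 217 (log2 4.55 ± 0.25, adjusted p = 1.6e-07). Orange peel powder also exceeded pectin for erg-4, where it was at 768 ± 119 (log2 3.01, adjusted p = 0.000196). Of 3 tested erg genes 2 were higher, a list too short to be set against the 14.4% called among all tested genes. The sterol isomerase gene erg-1 was at 2229.8 and 1979 against 549, 259 and 193 (log2 2.80 ± 0.41). mig-12 was at 813 and 665 FPKM, 68.9, 57.6 and 65.8 on Avicel and 70.2 ± 27.3 on pectin, and it was called against both (log2 3.50 and 3.44). NCU04108 was likewise called against both, at 2682 and 2258 FPKM, 76.7, 54.5 and 62.3 on Avicel and 491 ± 265 on pectin (log2 5.25 and 2.46). NCU00606, chosen after its values were seen as the largest difference from pectin, was at 1121 and 1062 FPKM, against 26.0, 29.7 and 36.3 on Avicel and 17.9 ± 4.25 on pectin (SD, n = 3). Its log2 fold change was 5.12 against Avicel and 5.88 against pectin, and the single xylan library was at 49.7 FPKM. For mig-12 and NCU00606 the pectin and Avicel levels were both under 100 FPKM, whereas erg-4 and NCU04108 were intermediate on pectin. The chitinase gene chit-1 was at 1787 and 1547 against 86.1, 66.2 and 76.5 (log2 4.44 ± 0.61). cel-1, which encodes a fatty acid synthase subunit, was at 428 and 367 against 30.9, 23.3 and 19.7 (log2 3.98 ± 0.50). Since the orange peel powder and pectin libraries came from the same study, these differences from pectin do not cross studies. The orange peel powder libraries are shared by the comparisons with Avicel and with pectin. The comparison with pectin called 13 genes higher (0.149%) and 14 lower (0.161%) on orange peel powder.

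Genes of protein synthesis and mitochondrial import were higher on orange peel powder or not called, and the ribosomal calls did not hold without single libraries. Of 7 ribosomal protein genes with a crp symbol, 6 were called higher (median log2 2.11). crp-4 was at 7042 and 5952 FPKM against 3213, 567 and 558, with Avicel replicate 1 several times above replicates 2 and 3 (log2 2.68 ± 0.66, adjusted p = 0.0146). That call was lost without orange peel powder replicate 1 or 2 or Avicel replicate 2 or 3 (adjusted p = 0.124, 0.0728, 0.0543 and 0.0556, in that order) and with only the groups compared in the fit (adjusted p = 0.102). The count of 6 was 0 without either orange peel powder library and without Avicel replicate 2 or 3, and 7 without Avicel replicate 1. Of 18 genes for import of proteins into mitochondria (tom, tim), 6 were higher and none lower (median log2 0.91). tim54 was at 80.7 and 65.0 against 16.1, 16.1 and 16.5 (log2 2.09 ± 0.31) and tim23 at 227 and 179 against 88.6, 70.5 and 73.0 (log2 1.38 ± 0.19), both without overlap, as for every called gene. That count was 2 without orange peel powder replicate 1 and 8 or 9 without orange peel powder replicate 2 or Avicel replicate 1. The chaperone gene hsp60 was at 512 and 413 against 142, 84.3 and 86.1 (log2 2.17 ± 0.37, adjusted p = 0.00162). hsp70-1 was higher by log2 2.00, a call lost without orange peel powder replicate 1 or 2 or Avicel replicate 2 or 3 (adjusted p = 0.169, 0.0786, 0.0738 and 0.0739, in that order) and with only the groups compared in the fit (adjusted p = 0.137). The other 9 genes for heat shock and oxidative stress were not called, so 18.2% of that list was called, against 14.4% of all tested genes.

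Amino acid synthesis genes were called in 11 of 62 cases, 17.7% against 14.4% of all tested genes. Of these, 10 were higher and 1 lower. lys-6 was at 335 and 262 FPKM against 35.4, 22 and 23.9 (log2 3.43 ± 0.35, adjusted p = 3.92e-05). The 1 lower member was am, the glutamate dehydrogenase gene. The count of 10 was 2 without orange peel powder replicate 1 and 17 without Avicel replicate 1. The amino acid control gene cpc-1, a transcription factor gene, was lower, at 1496 and 1414 against 4957, 4438 and 5343 (log2 -1.75 ± 0.26).

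Central carbon metabolism was mostly not called. None of 13 genes of glycolysis and fermentation was called, against 14.4% of all tested genes, with log2 fold changes from -0.76 to 1.03. Without Avicel replicate 1, 1 of them was called higher. The pyruvate decarboxylase gene cfp, used in fermentation, was at 1769 and 2088 FPKM against 15862, 532 and 97.1, so Avicel replicate 1 was far above the orange peel powder libraries and the other Avicel libraries far below them. The alternative oxidase gene aod-1, at 146 and 325 against 3444, 24.0 and 18.4, and the gluconeogenesis gene acu-6, at 5325 and 5260.0 against 9303, 584 and 82.7, had the same order of libraries, and none of the 3 was called. Of 5 genes of the glyoxylate cycle and gluconeogenesis, 1 was called higher and none lower, with log2 fold changes from 0.52 to 2.78. The count of higher genes was 3 without Avicel replicate 1 and 4 without the first Avicel and sucrose libraries. The called gene was the isocitrate lyase gene acu-3, of the glyoxylate cycle, at 625 and 697 against 293, 229.5 and 151 (log2 1.60 ± 0.39, adjusted p = 0.013). Its call was lost without orange peel powder replicate 1 or 2 (adjusted p = 0.0866 and 0.0891, in that order). None of the 29 complex I (nuo), 13 vacuolar ATPase (vma), 26 DNA repair (mus, mei, uvs) or 5 chitin and glucan synthesis genes was called. Of all tested genes 14.4% were called, and the list of 5 is too short to be set against that share. The repair list takes in only those symbols, and the mismatch repair gene msh3, outside it, was called lower. After quantile normalization, after median centring or with only the groups compared in the fit, 1 repair gene of the list was called lower. Without Avicel replicate 1, 2 were.

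Genes of aerial hyphae, conidia (asexual spores) and mating were called lower more often than higher on orange peel powder. These are bulk libraries, in which fewer cells of a type and less RNA per cell cannot be told apart. Of 10 genes listed for aerial and conidial development, 4 were lower and 1 higher (median log2 -1.72), 50% against 14.4% of all tested genes. The lower genes were eas, ccg-1, con-8 and ccg-4, and ccg-4, a pheromone precursor gene, is counted in the mating list too. The calls of ccg-1 and con-8 were lost under several settings, given below. The 4 lower calls became 2 without either orange peel powder library and without Avicel replicate 2 or 3. The labels name the samples mycelia, and these markers were detected in libraries of both groups. Their part in other results was not tested. The hydrophobin gene eas (NCU08457), whose product coats aerial structures, was at 818 and 891 FPKM against 34619.9, 20371 and 17326 (log2 -4.75 ± 0.74, adjusted p = 0.000994). On pectin eas was at 5157 ± 2754 and without carbon at 116679 ± 77851 (SD, n = 3). The pheromone precursor gene ccg-4 was at 37.0 and 54.6 against 1211, 3252 and 3709.8 (log2 -5.73 ± 0.64, adjusted p = 9.06e-05). The clock-controlled gene ccg-1 was lower by log2 -2.48, a call lost without orange peel powder replicate 1 or 2 or Avicel replicate 2 or 3 (adjusted p = 0.215, 0.0702, 0.0759 and 0.0789, in that order), without the filter (adjusted p = 0.0627), after quantile normalization (adjusted p = 0.147) and with only the groups compared in the fit (adjusted p = 0.0792). The conidiation gene con-8 was lower by -2.69, a call lost without orange peel powder replicate 1 or 2 or Avicel replicate 1, 2 or 3 (adjusted p = 0.249, 0.148, 0.103, 0.067 and 0.0729, in that order), with a pseudocount of 0.1 (adjusted p = 0.235), without the filter (adjusted p = 0.081), without the variance trend (adjusted p = 0.0567) and with the replicate number as a block (adjusted p = 0.074). ccg-14 was higher by 3.61, a call lost without orange peel powder replicate 1 or 2 or Avicel replicate 2 or 3 (adjusted p = 0.17, 0.157, 0.109 and 0.117, in that order), without the filter (adjusted p = 0.0626), with only the groups compared in the fit (adjusted p = 0.137) and with values under 10 FPKM set to 10 (adjusted p = 0.0543). con-10 and con-6 were not called, at 75.7 and 96.9 against 158, 699 and 679.5 and 502 and 769.6 against 2082, 654 and 517 FPKM. The conidiation regulator gene fl was at 29.0 and 39.9 against 58.8, 96.7 and 81.2 (log2 -1.16 ± 0.40), and ccg-6 and ccg-9 had log2 fold changes of -0.20 and -0.19.

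All 4 genes of the mating list, which includes ccg-4 above, were lower, 2 of them without orange peel powder replicate 1. A list of 4 is too short to be set against the 14.4% called among all tested genes. Another list, built from gene symbols, lacked ccg-4 and took in preg, by the letters of its symbol and not by function. preg was not called (log2 0.36). The mating-type gene matA-1 was at 4.88 and 6.59 FPKM against 46.8, 283 and 337 (log2 -4.64 ± 0.95, adjusted p = 0.00561), a call lost without orange peel powder replicate 1 (adjusted p = 0.0656). The pheromone receptor gene pre-1 was at 7.85 and 6.23 against 19.0, 218 and 248 (log2 -3.69 ± 0.89), a call lost without orange peel powder replicate 1 or 2 (adjusted p = 0.088 and 0.0856, in that order) and with only the groups compared in the fit (adjusted p = 0.107). Avicel replicate 1 was nearest to the orange peel powder values for matA-1 and pre-1. The second receptor gene pre-2 was lower by log2 -1.91, a call lost with values under 10 FPKM set to 10 (log2 -0.64). Of 9 light and clock genes, ylo-1, for carotenoid synthesis, was higher by log2 1.37, a call lost without orange peel powder replicate 2 (adjusted p = 0.0591) and with only the groups compared in the fit (adjusted p = 0.0641). al-3, of the same pathway, was lower by -1.33, a call lost without orange peel powder replicate 1 or 2 or Avicel replicate 2 or 3 (adjusted p = 0.16, 0.0583, 0.0531 and 0.0554, in that order). With ylo-1 and al-3, 22.2% of the light and clock list was called, against 14.4% of all tested genes. The clock gene frq was at 222 and 225 FPKM against 219, 237 and 239 (log2 -0.05 ± 0.30, adjusted p = 0.938).

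The nitrogen genes am, nit-3 and nit-6 were lower on orange peel powder. Of 8 nitrogen and sulfur genes, 3 (37.5%) were lower and none higher, against 14.4% of all tested genes called in either direction. The count of lower genes stayed at 3 with Avicel replicate 1, 2 or 3 left out in turn. The glutamate dehydrogenase gene am (NCU01195), whose product fixes ammonium, was at 309 and 328 FPKM against 3958, 2900.3 and 4099 (log2 -3.50 ± 0.23, adjusted p = 9.08e-07). The nitrate reductase gene nit-3 was at 7.81 and 7.04 against 39.6, 104 and 130.4 (log2 -3.29 ± 0.43, adjusted p = 0.000307), and the nitrite reductase gene nit-6 at 105 and 134 against 3030.0, 1099 and 1083 (log2 -3.68 ± 0.69, adjusted p = 0.00308). No library of one group overlapped the other for these genes, as for every called gene and 53.8% of all tested genes. In the new study am had 249 ± 71.9 FPKM with 1% pectin (SD, n = 3) and 14755 in the single library on 2% xylan, and nit-3 had 10.6 ± 0.7 and 464. In the earlier study they were at 1661 ± 110.2 and 67.6 ± 21.0 FPKM without carbon. The sulfur regulator gene cys-3 was at 923 and 915 against 566, 547 and 561 (log2 0.72 ± 0.18), below the 2-fold limit, and the glutamine synthetase gene gln-1 at 2229 and 2022 against 1987, 2089 and 2443 (log2 -0.03 ± 0.39).

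Genes of the quinic acid cluster serve growth on a plant acid. Of 7 qa genes, 4 were lower and none higher (log2 fold changes from -2.16 to 0.84), a count that was 2 without orange peel powder replicate 1 or 2 or Avicel replicate 2 or 3, and 2 with the replicate number as a block. The activator gene qa-1F was at 7.65 and 10.9 FPKM against 32.4, 47.8 and 48.7 (log2 -2.09 ± 0.30, adjusted p = 0.000605) and the repressor gene qa-1S at 21.0 and 26.6 against 50.2, 85.5 and 71.8 (log2 -1.48 ± 0.25, adjusted p = 0.00146). Neither overlapped between groups, as for every called gene. Of the qa list 57.1% was called, against 14.4% of all tested genes.

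Of 76 tested genes with a gh (glycoside hydrolase) symbol, which include many of the genes above, 10 were higher and 25 lower, 46.1% of them, against 14.4% of all tested genes. Of 11 arginine synthesis genes 3 were higher, a count of 0 without orange peel powder replicate 1. Of 9 hyphal fusion (ham) genes 2 were lower and none higher, 22.2% against 14.4% of all tested genes, and both calls were lost without either orange peel powder library. Of 57 serine/threonine kinase genes (stk, prk) 10.5% were called and of 20 peroxisome (pex) genes 5%, both below the 14.4% of all tested genes. The 3 higher kinase calls became 0 without orange peel powder replicate 1 and 1 without orange peel powder replicate 2 or Avicel replicate 2 or 3. The 3 lower ones became 1 without orange peel powder replicate 1 or Avicel replicate 1, and the peroxisome call was lost without orange peel powder replicate 1.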

How the data were processed

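RNA-seq of mycelia gave 15 libraries, of which 14 in 5 replicated groups entered the fit and 5 form the comparison. Per the submitters' processing notes the tools were TopHat 1.2.0, Cufflinks 0.9.3 and Cuffdiff. The genome build is not given in the sources used here, and positions are those of the files on numbered contigs. The authors deposited FPKM per gene for the new study and FPKM and coverage per transcript for the earlier one, per the file headers. The deposited FPKM intervals equal FPKM ± 2 times its square root and were not used as errors. From the authors' deposited coverage signal, FPKM and length, the mapped bases implied for the Avicel libraries were computed. FPKM was summed over the transcripts of a locus (164 loci had more than 1) and the tables were joined by contig, start and end, giving 9733 loci, of which 863 carried another identifier in the earlier tables. As the tables come from separately processed studies, levels set across them may differ for that reason. Of the identifiers, 9215 were found in the NCBI RefSeq gene table (assembly NC12) and 1113 had a symbol there.

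The 8700 genes averaging 1 FPKM or more across the 14 libraries were tested with limma 3.58.1 in R 4.3.3 on log2(FPKM + 1), a scale that understates changes of low genes, with a variance trend and 9 residual degrees of freedom. p-values were adjusted by Benjamini-Hochberg over all tested genes, two-sided. Calls required an adjusted p under 0.05 together with a log2 difference of 1 or more in size. The series design text calls the replicates biological. With 2 against 3 libraries an exact permutation test could not reach 0.05 and none was run. The code was tested on simulated data. Summed FPKM ranged from 3.86e+06 to 5.17e+06 per compared library, and shares are percent of that sum. In the authors' deposited table of pooled values, 1234 of 1235 called genes present had the same direction. That table pools the same libraries, so this checks the joining of the tables and not the differences themselves.

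Genes and lists were chosen with earlier results of these data known. The text names the 15 largest increases and decreases among called genes whose libraries do not overlap, the 10 largest with a symbol, up to 6 called members per list, all members of the galacturonate, transcription factor, cellodextrin, mannan and conidia lists, and uncalled members as values. NCU00606, NCU01900, NCU05585, NCU09491, NCU09775, gh3-7, gh7-4, gh45-1, gh61-3, gh61-6, gh61-8 and hgt-1 were named beyond that rule, after their values were seen. Lists with under 5 tested members are given only for mannan, mating (including the symbol list that holds preg) and erg genes. Every list count is to be set against the 14.4% of all tested genes called, 8.02% higher and 6.33% lower. Sequences were not used here.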

Additional observations from a re-analysis of the deposited data

How the results depend on the processing

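Of the 152 called genes that the naming rule picks, not all of which are described above, 88 stayed called under every setting tried other than a fold threshold of log2 2, none changed sign, and the other 64 lost the call under at least 1. The 1249 calls (698 higher, 551 lower) ranged from 1040 to 1618 under other pseudocounts, filters, scalings, moderation, transcript handling, a join by identifier and a fit of only the compared groups. Requiring an absolute log2 fold change of 2 gave 541 (335 higher, 206 lower), and no fold threshold gave 831 lower. Leaving out the first Avicel and sucrose libraries together gave 2068 (1069 higher, 999 lower). Leaving out 1 library each gave 493 to 1778 calls, with 259 to 934 higher and 234 to 844 lower. The lowest counts came without orange peel powder replicate 1 (493, 259 and 234), followed by replicate 2 (735, 358 and 377), Avicel replicate 3 (856, 453 and 403) and Avicel replicate 2 (896, 459 and 437). The highest came without Avicel replicate 1 (1778, 934 and 844). A fit with 1 orange peel powder library assumes that it varies like the other groups. The causes were not tested. Joining by identifier changed the sign of 20 of 1212 main calls. Setting values under 10 FPKM to 10 kept 1056 of the 1249 calls. For 18 others the computed sign differed. Groups that do not overlap can only fall to a difference of 0 in this way, so these were not reversals. Scaling moved the median log2 of all genes by less than 0.1. The replicate numbers come from different studies and same-numbered libraries did not deviate together (r = -0.0159 and 0.026 across genes). With the replicate number as a block 1165 genes were called (659 higher, 506 lower). Read depth is unknown for orange peel powder, and Avicel replicate 1 was the shallowest Avicel library, which limits low genes most.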

Other observations

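Some called genes lay next to others called in the same direction. Among tested genes ordered by position, most stood alone: 497 of 698 higher genes and 323 of 551 lower genes. Higher genes formed 89 runs of 2 or more neighbours and lower genes 98. The longest runs had 5 genes. One, NCU09532 to NCU09536 (contig 10.5, positions 4493703 to 4505946), was higher on orange peel powder and holds the galacturonate genes NCU09532 and NCU09533. The other, NCU08113 to NCU08117 (contig 10.1, positions 314121 to 334580), was lower and holds the transporter gene cdt-2 and the mismatch repair gene msh3. A run of 4 lower genes (contig 10.3, positions 5242633 to 5268297) held gh61-5 and gh3-3, another around gh5-1 lay on contig 10.1 (positions 7266073 to 7276061), and one around gh6-2 on contig 10.5 (positions 858215 to 865306). The qa genes qa-3, qa-Y, qa-1S and qa-1F formed a run of 4 lower genes (contig 10.7, positions 2203259 to 2214461). How often such runs occur without a carbon source difference was not tested.

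Symbol families with called members in both directions numbered 15. Among glycoside hydrolases of family gh3, gh3-1 was higher by log2 2.83 and gh3-6 lower by -7.29. In gh18, the chitinase family, gh18-6 was higher by 2.23 and gh18-4 lower by -2.14, the latter call being lost without orange peel powder replicate 1 or 2 or Avicel replicate 3 (adjusted p = 0.163, 0.083 and 0.0689, in that order) and with a pseudocount of 0.1 (adjusted p = 0.212). Of the amino acid control genes, cpc-2 was higher by 2.43 and cpc-1 lower by -1.75, and the cpc-2 call was lost without orange peel powder replicate 1 or 2 or Avicel replicate 2 or 3 (adjusted p = 0.144, 0.0891, 0.0702 and 0.0715, in that order) and with only the groups compared in the fit (adjusted p = 0.116). Of the phosphorus genes, pho-5 was higher by 3.03 and pho-2 lower by -1.06. The pho-2 call was lost without orange peel powder replicate 1 (log2 -0.78, adjusted p = 0.151) and, its log2 falling just under the 2-fold limit, without Avicel replicate 3 (-0.99), with a pseudocount of 5 (-0.91) and with the replicate number as a block (-0.998).

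The most abundant message on orange peel powder was tef-1, the translation elongation factor gene, at 69249 ± 1168 FPKM (SD, n = 2) against 46042 ± 13174 on Avicel (SD, n = 3), and it was not called. Of the 20 most abundant genes on orange peel powder, the polygalacturonase-family gene gh28-2 ranked 14th, at 16910.0 ± 264 FPKM. On Avicel the highest were cbh-1, ccg-1, gh11-2 and gh6-2, all called lower on orange peel powder.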
